A study of Mus musculus with 10 samples.

Results

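*Rhox5*, *Rhox6*, *Rhox9* and *Rhox13* are 4 of the reproductive homeobox genes that lie in a cluster on the mouse X chromosome. The members were taken as the rows with these 4 names, or their Ensembl identifiers, in each of the deposited tables of unique molecular identifiers (UMIs), where they were 4 of 27998 genes in the E14Tg2a table and 4 of 32285 genes in the R1 table. They were read by library, in embryoid body (EB) cells with or without a UMI of *Esx1*, and in WT and dCD d4 EB cells with or without a UMI of *Zfp42*. *Esx1* is another X-linked homeobox gene, known from extraembryonic ectoderm and placenta, and *Zfp42* (Rex1) is a marker of naïve pluripotency.

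Rhox genes encode homeodomain transcription factors that are known mainly from the testis, the ovary and the placenta. In the embryo proper much of the cluster is kept silent by DNA methylation, while extraembryonic tissues and germ cells can express it. *Rhox5* (Pem), the founding member, is expressed in placenta, in Sertoli cells and in cultured stem cells, *Rhox6* (Psx1) and *Rhox9* (Psx2) are expressed in placenta and in developing germ cells, and *Rhox13* is a germ cell gene.

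The series followed the differentiation of mouse embryonic stem cells (ESC) into primordial germ cell-like cells (PGCLC) by droplet single-cell RNA sequencing. Wild type cells of the male line E14Tg2a gave 8 libraries: 2i ESC grown with MEK and GSK3β inhibitors plus LIF, S+L ESC grown in serum plus LIF, epiblast-like cells after 1, 2 and 3 days (d1, d2 and d3 EpiLC), epiblast stem cells (EpiSC) passaged with Activin A and bFGF, and EB made from d2 EpiLC and cultured with BMP4, SCF, LIF and EGF for 2 or 4 days (d2 and d4 EB). The male line R1 gave 2 libraries of d4 EB, 1 of the wild type (WT) and 1 of *Mll3/4* dCD cells, a line derived from R1 in which the H3K4 methyltransferases MLL3 and MLL4 are catalytically deficient. EB are mixed cultures, and the study lists 135 EB cells of E14Tg2a as PGCLC.

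Every condition had 1 library, so no test between conditions was possible, genotype and library cannot be told apart, and the intervals given below are 95% intervals that cover counting error only. The tables held 2782 cells of E14Tg2a and 3115 cells of R1, with a median of 11751 to 36750 UMIs per cell by library. Of the barcodes 8 occurred in more than 1 library of E14Tg2a, and 0 in both libraries of R1. *Kmt2c* (MLL3) stood at 53.8 and 47.5 counts per 1000000 UMIs (CPM) in dCD and WT, and *Kmt2d* (MLL4) at 29.1 and 29.4 CPM; a catalytic mutation need not change transcript levels, so these values do not check the genotype labels.

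The cluster spanned chrX:37213804-38306028 in GRCm38 and held 42 genes with a Rhox symbol, 34 of them protein-coding. *Rhox5* (ENSMUSG00000095180) lies at chrX:37804842-37808876 on the + strand, *Rhox6* (ENSMUSG00000006200) at chrX:37826910-37829857 on the + strand, *Rhox9* (ENSMUSG00000068048) at chrX:37899097-37901770 on the − strand and *Rhox13* (ENSMUSG00000050197) at chrX:38121219-38129967 on the + strand. Each gene has 1 coding exon of 46 bases, which shows how near the members are to each other and is printed here from the GENCODE M21 transcripts, 5′ to 3′ on the strand of the gene, with capitals at the bases that differ from *Rhox6*.
Rhox6, exon 3 of 4, chrX:37828415-37828460, +: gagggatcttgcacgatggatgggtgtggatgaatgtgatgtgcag
Rhox9, exon 3 of 4, chrX:37900280-37900325, −: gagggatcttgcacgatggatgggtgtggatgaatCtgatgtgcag
Rhox13, exon 2 of 3, chrX:38123074-38123119, +: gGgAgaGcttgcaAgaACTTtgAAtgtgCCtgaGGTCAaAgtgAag
Rhox5, exon 3 of 4, chrX:37806074-37806119, +: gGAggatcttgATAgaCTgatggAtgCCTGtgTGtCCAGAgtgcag
*Rhox6* and *Rhox9* shared 45 of the 46 bases (97.8%), whereas *Rhox5* and *Rhox13* each shared 27 with *Rhox6* (58.7%).

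This near identity bears on the counts, because reads that match both genes cannot be assigned to either. Of the 961 windows of 50 bases in the *Rhox6* transcript 159 (16.5%) also occurred in *Rhox9*, and of the 2531 windows of the *Rhox9* transcripts 159 (6.28%) occurred in *Rhox6*. *Rhox5* and *Rhox13* shared 0 of 705 and 0 of 827 windows with any other gene. The shared windows of *Rhox6* began 495 bases or more from the 3′ end of its transcript, and those of *Rhox9* 464 bases or more, while the libraries were made from 3′ ends.

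Promoters were read from RefSeq (GRCm38.p6) for the 2 members that have an entry, *Rhox5* and *Rhox13*, as 250 bases before and 50 bases after the start. CG dinucleotides are the sites of DNA methylation, which was not measured in these libraries. Capitals mark each CG.
Rhox5, chrX:37754358-37754657, +: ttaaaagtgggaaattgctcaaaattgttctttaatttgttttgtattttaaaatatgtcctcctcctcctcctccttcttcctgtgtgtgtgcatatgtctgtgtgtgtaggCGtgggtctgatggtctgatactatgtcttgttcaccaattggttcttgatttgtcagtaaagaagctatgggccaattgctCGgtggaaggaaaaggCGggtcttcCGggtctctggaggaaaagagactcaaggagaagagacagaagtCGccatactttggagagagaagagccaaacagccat
Rhox13, chrX:38120590-38120889, +: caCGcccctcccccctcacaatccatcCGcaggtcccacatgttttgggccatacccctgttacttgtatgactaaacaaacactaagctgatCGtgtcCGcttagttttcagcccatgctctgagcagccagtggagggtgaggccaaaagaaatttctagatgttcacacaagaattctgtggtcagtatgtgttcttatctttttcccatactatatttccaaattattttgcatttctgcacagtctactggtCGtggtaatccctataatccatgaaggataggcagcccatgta
Each window held 5 CG, below the median of 7 over 32851 promoters, and 62.0% of all promoters held at least as many. At least 1 CG was present in 94.6% of all promoters, CACGTG in 7.15%, and TCCCGC on either strand in 20.0%. Neither window held CACGTG or TCCCGC on either strand. RefSeq placed the start of *Rhox5* at 37754608, upstream of the GENCODE start at 37804842.

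Across the E14Tg2a libraries the members fell into different patterns: *Rhox5* was high in EpiLC and again in d4 EB, *Rhox6* and *Rhox9* were high in EB alone among these 8 libraries, and *Rhox13* had its highest level in S+L ESC. *Rhox5* stood at 17.8 CPM in 2i ESC and 6.73 CPM in S+L ESC. It stood at 150, 128 and 34.5 CPM after 1, 2 and 3 days of EpiLC culture and at 1.41 CPM in EpiSC, and d2 and d4 EB gave 7.92 and 126 CPM. The intervals of d2 EpiLC (122 to 135 CPM) and d4 EB (119 to 134 CPM) overlapped, as did those of d2 EB (6.54 to 9.5 CPM) and S+L ESC (5.23 to 8.53 CPM), and no other neighbours in this order did.

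*Rhox6* was read at 0.571 CPM in 2i ESC, 2.38 CPM in S+L ESC, 2.73, 0.717 and 0.355 CPM in EpiLC of days 1, 2 and 3, 0 CPM in EpiSC, and 16.2 and 327 CPM in d2 and d4 EB. *Rhox9* followed the same order at the top, with 0.799 CPM in 2i ESC, 1.78 CPM in S+L ESC, 2.27, 1.70 and 0.497 CPM in the EpiLC of those days, 0 CPM in EpiSC, and 22.1 and 235 CPM in d2 and d4 EB. For both genes d4 EB and d2 EB stood clear of each other and of the remaining libraries, whose intervals overlapped with those of their neighbours or lay at a few UMIs. EpiSC gave 0 UMIs of either gene, which allows up to 0.235 CPM.

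*Rhox13* stood at 2.97 CPM in 2i ESC, 14.6 CPM in S+L ESC, 7.73, 4.66 and 3.20 CPM in EpiLC of days 1, 2 and 3, 0 CPM in EpiSC, and 3.89 and 4.79 CPM in d2 and d4 EB. S+L ESC (12.4 to 17.2 CPM) was separate from the rest, and the libraries from d1 EpiLC (6.17 to 9.56 CPM) and d4 EB (3.51 to 6.39 CPM) down to 2i ESC overlapped from neighbour to neighbour. The d4 EB value came from 46 UMIs in 14 cells, of which 1 cell held 25 (54.3%). Without that cell and the top cell of d2 EB the log2 difference of *Rhox13* from d2 to d4 EB was -0.51, against 0.24 with them.

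**Figure D1:**
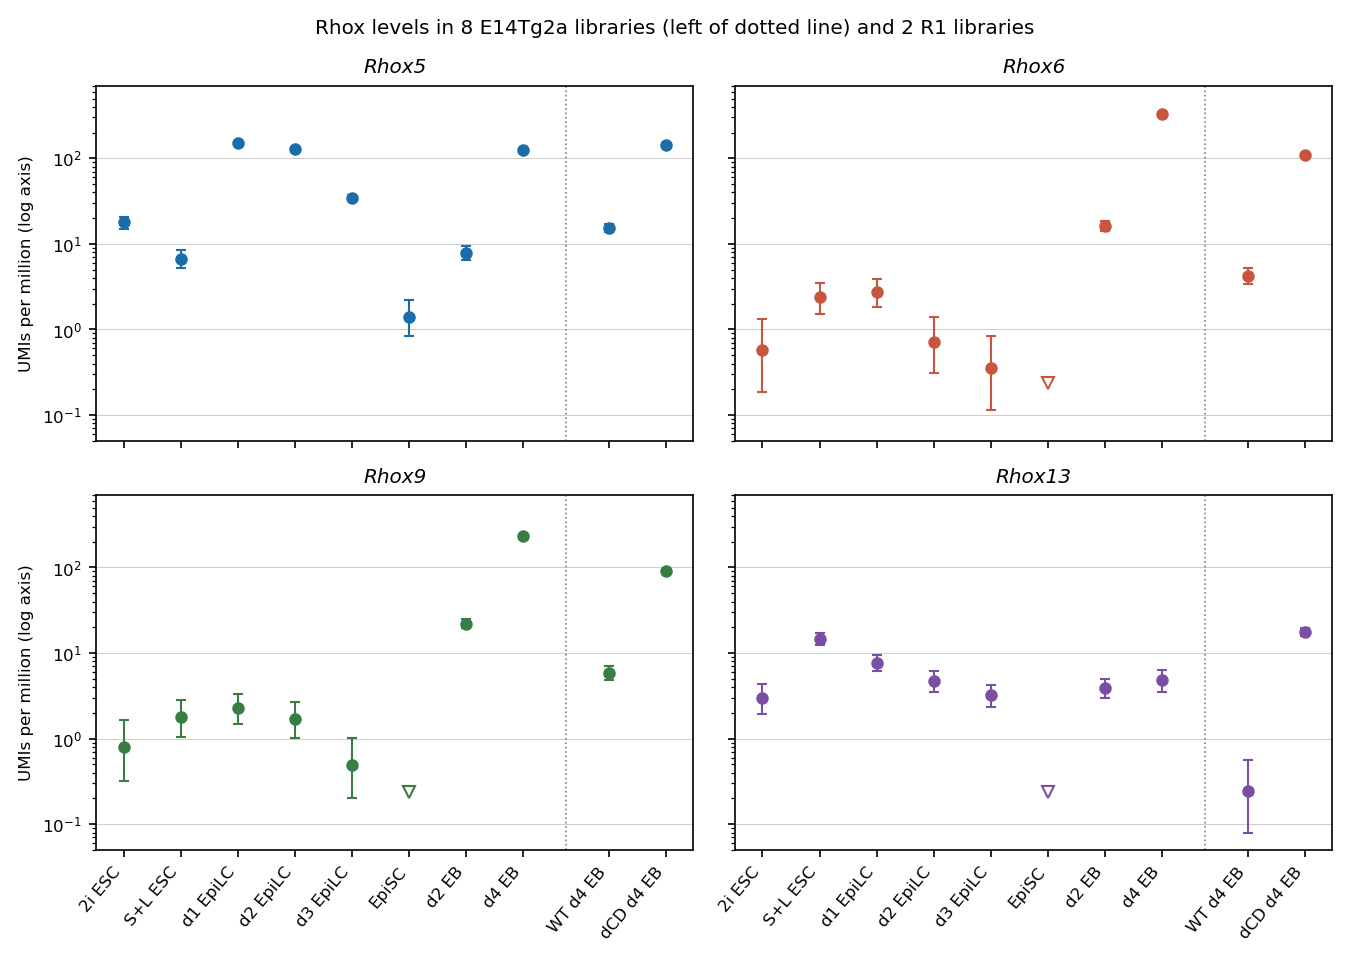
Level of each *Rhox* gene (CPM, log axis) in the 8 E14Tg2a libraries and, right of the dotted line, in the WT and dCD d4 EB libraries of R1, which were made with another chemistry and counted apart; points are single libraries, bars are 95% counting intervals and open triangles are libraries with 0 UMIs, drawn at the level of 3 UMIs. *Rhox5* shows maxima in d1 EpiLC (150 CPM) and d4 EB (126 CPM), *Rhox6* (327 CPM) and *Rhox9* (235 CPM) 1 maximum in d4 EB, and *Rhox13* its E14Tg2a maximum in S+L ESC (14.6 CPM).

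The steps along the differentiation were read as ratios of CPM, and a gene was called past 2-fold when log2(CPM + 1) differed by at least 1 among genes with at least 10 UMIs over both groups. From 2i ESC to d1 EpiLC *Rhox5* was 8.42-fold higher (7.14 to 9.98), *Rhox6* 4.78-fold (1.84 to 15.8), *Rhox9* 2.84-fold (1.20 to 7.79) and *Rhox13* 2.60-fold (1.66 to 4.21). This put 3 of 4 members (*Rhox5*, *Rhox6* and *Rhox13*) past 2-fold higher, where 12.1% of 12479 genes were higher and 6.54% lower. *Rhox6* and *Rhox9* counted 5 and 7 UMIs in 2i ESC, so their ratios are wide.

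From d1 to d2 EpiLC *Rhox5* stood at 0.855 times its earlier level and 1 member, *Rhox6*, was past 2-fold lower (0.263 times, 30 and 8 UMIs), against 6.28% of genes lower and 9.91% higher. From d2 to d3 EpiLC *Rhox5* was 3.71-fold lower and the sole member past 2-fold, against 3.1% of genes lower and 3.44% higher. *Rhox5*, highest in these cells, was thus lower in d3 EpiLC than in d1 and d2 EpiLC.

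In EpiSC the members were at or near 0. *Rhox5* was 90.9-fold lower than in d2 EpiLC, with 18 UMIs in 16 cells, while *Rhox9* was at least 7.24-fold lower and *Rhox13* at least 19.8-fold lower, both with 0 UMIs. All 3 members that had at least 10 UMIs were past 2-fold lower, against 6.13% of genes lower and 8.47% higher. *Rhox6*, below that minimum, was at least 3.05-fold lower.

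When d2 EpiLC were made into EB, *Rhox5* and the pair *Rhox6* and *Rhox9* moved in opposite directions. *Rhox5* was 16.2-fold lower in d2 EB than in d2 EpiLC, *Rhox6* was 22.7-fold higher (11.3 to 53.1) and *Rhox9* 13.0-fold higher (8.18 to 21.9), and *Rhox13* stood at 0.835 times its level. Of the 4 members 2 were past 2-fold higher against 13.1% of genes, and 1 was lower against 9.79%.

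From d2 to d4 EB *Rhox5* was 16-fold higher (13.2 to 19.5), *Rhox6* 20.1-fold (17.6 to 23.1), *Rhox9* 10.6-fold (9.46 to 12.0) and *Rhox13* 1.23-fold (0.816 to 1.85). That put 3 of 4 members past 2-fold higher, where 9.73% of genes were higher and 3.54% lower. In S+L ESC against 2i ESC *Rhox13* was 4.93-fold higher (3.24 to 7.80), *Rhox6* 4.16-fold and *Rhox9* 2.23-fold, while *Rhox5* stood at 0.378 times its 2i level. There 2 of 4 members (*Rhox6* and *Rhox13*) were past 2-fold higher against 9.73% of genes, and 1, *Rhox5*, lower against 2.41%.

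*Rhox5* in EpiLC was carried by part of the cells. A *Rhox5* UMI was found in 174 of 280 d1 EpiLC (62.1%), 111 of 289 d2 EpiLC (38.4%) and 87 of 399 d3 EpiLC (21.8%), and after thinning every cell to 15374 UMIs in 50.6%, 33.2% and 15.2%. In d2 EpiLC the cells with a UMI held 12.9 UMIs of it on average, and 57 cells with 10 or more held 89.9% of all *Rhox5* UMIs. By contrast, the 246 *Zfp42* UMIs of the same library lay in 144 cells, 1.71 per cell with a UMI.

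The 57 *Rhox5*-high d2 EpiLC were like the other 232 in *Zfp42*, which had a UMI in 47.4% and 50.4% of them, and in *Rhox13*, at 4.61 and 4.67 CPM. *Rhox6* stood at 2.52 CPM in the *Rhox5*-high cells against 0.228 CPM in the others, and *Rhox9* at 4.19 against 1.03 CPM. These levels rest on 8 *Rhox6* and 19 *Rhox9* UMIs in the whole library. The summed level of 7 naïve pluripotency markers was 70.9 CPM against 48.6 CPM, and 5 of the 57 and 13 of the 232 cells were called doublets. Their median depth was 38789 and 35156 UMIs.

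In d4 EB the 4 genes were spread over very different numbers of cells. *Rhox5* was found in 200 of 368 cells (54.3%), and its 43 cells with 10 or more UMIs held 60.9% of its UMIs. *Rhox6* was found in 93 cells, but 26 cells with 10 or more UMIs held 96.4% of its 3140 UMIs, and 9 cells held 50% of them. *Rhox9* was found in 85 cells, of which 25 with 10 or more UMIs held 95.8% of 2259 UMIs. The bulk of *Rhox6* and *Rhox9* RNA in this library therefore lay in a few cells with high counts.

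**Figure D2:**
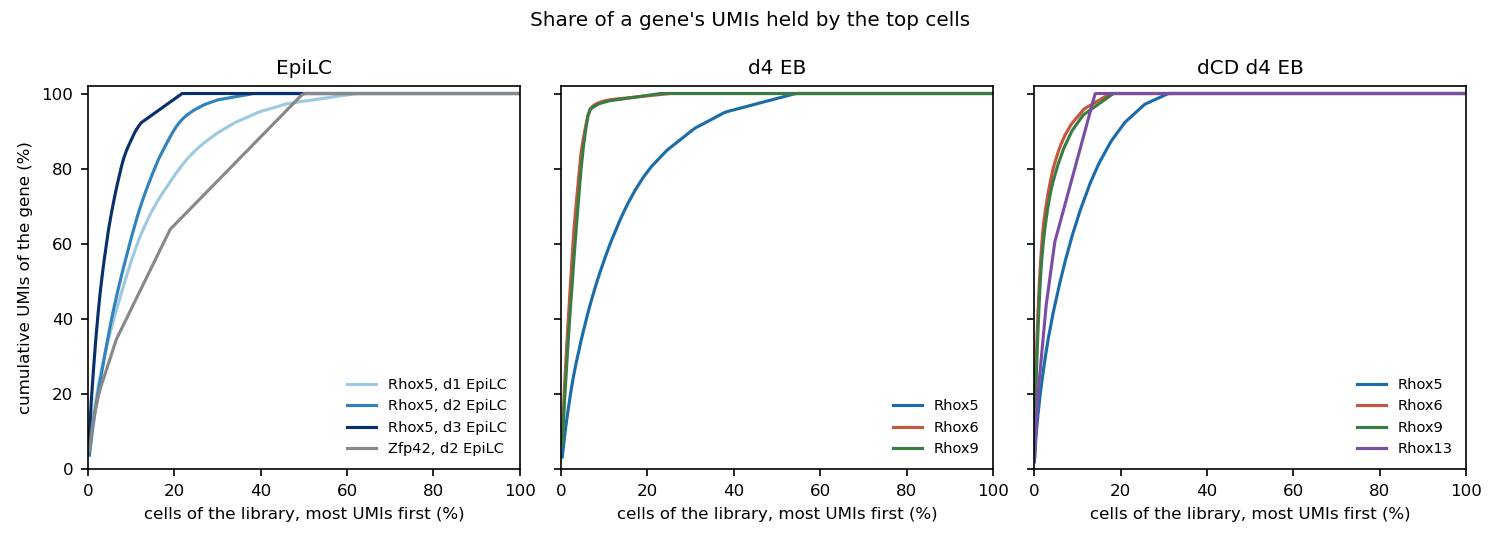
Cumulative share of the UMIs of a gene (%, y axis) against the share of the cells of a library (%, x axis), cells ordered from most to fewest UMIs of that gene, 1 line per gene and library. The *Rhox6* and *Rhox9* lines of d4 EB rise almost straight to 96.4% and 95.8% at 26 and 25 of 368 cells, while the *Rhox5* line rises slowly to its 54.3% of cells.

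The high cells formed a separate range in d4 EB. For *Rhox6* 67 cells held 1 to 9 UMIs (114 UMIs together), 2 cells held 10 to 39, and 24 cells held 40 or more (3001 UMIs). For *Rhox9* the same counts were 60, 2 and 23 cells, and 21 cells held 40 or more UMIs of both genes. Free RNA in the droplets can give single UMIs, and its part in the cells with 1 to 9 UMIs was not tested.

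The remaining EB libraries lacked this gap. In d2 EB 6 cells held 10 to 39 *Rhox6* UMIs and 0 held 40 or more, and for *Rhox9* these counts were 6 and 2. In the dCD d4 EB 245, 41 and 14 cells held 1 to 9, 10 to 39 and 40 or more UMIs of *Rhox6*, and 261, 41 and 10 cells did so for *Rhox9*. In the WT d4 EB of R1 no cell exceeded 8 UMIs of either gene, in 46 cells with *Rhox6* and 63 with *Rhox9*.

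**Figure D3:**
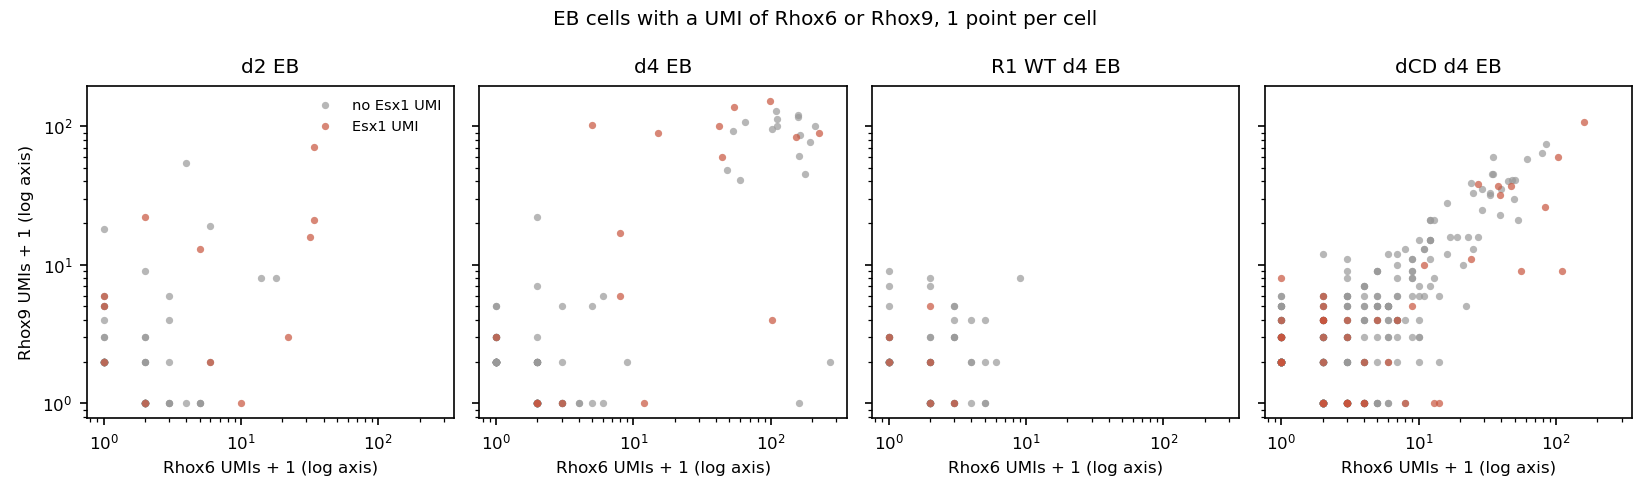
*Rhox9* against *Rhox6* UMIs (each plus 1, log axes) in single EB cells that held a UMI of either, 1 panel per library and 1 point per cell, red where the cell also held an *Esx1* UMI. In d4 EB 21 cells sit in the upper right with 40 or more UMIs of both genes, 6 of them red, dCD cells fill the range between low and high counts, and no WT cell of R1 passes 8 UMIs of either gene.

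*Rhox9* was found more often in cells with *Rhox6* than in cells without. A *Rhox9* UMI was present in 44 of 93 *Rhox6* cells of d4 EB (47.3%) against 14.9% of cells without *Rhox6*, and in 21 of 54 in d2 EB (38.9%) against 7.5%. In R1 this held for 24 of 46 WT cells (52.2%) against 2.8%, and for 193 of 300 dCD cells (64.3%) against 8.5%. The *Rhox6* cells were deeper, at a median of 27955 against 20539 UMIs in d4 EB and 13526.5 against 11488 UMIs in dCD, and the part of depth in this pairing was not tested.

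Over the 8 E14Tg2a libraries the genes with the most similar pattern were read by Pearson's r of log2(CPM + 1), among 10914 genes with at least 200 UMIs, as a description of 8 points that share each library's depth and composition. *Rhox6* and *Rhox9* were each other's nearest gene (r = 0.99), followed for *Rhox6* by *Tbx4* (0.98), *Cygb*, *Kdr* and *Hand2*, and for *Rhox9* by *Tbx4*, *Ldoc1*, *Kdr* and *Rhoj*. *Tbx4* and *Hand2* encode transcription factors of mesoderm, and *Kdr* a VEGF receptor. *Rhox5* was nearest to *Hdac8* (0.97), *Fancc*, *Atf7ip*, *Epn2* and *Kcmf1*, and *Rhox13* to the germline gene *Stk31* (0.93), *mt-Co1*, *Rpl21*, *Pvt1* and *Ankrd45*. Among the members themselves *Rhox5* had r = 0.35 with *Rhox6*, 0.37 with *Rhox9* and 0.46 with *Rhox13*, so its course differed from that of its neighbours in the cluster.

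EB cells were next split within their own library by *Esx1*. In d2 EB the 27 cells with an *Esx1* UMI held *Rhox6* at 135 CPM against 7.34 CPM in the 510 cells without, a ratio of 18.4 (14.1 to 24.0). *Rhox9* stood at 148 against 12.7 CPM (11.6-fold, 9.29 to 14.6). *Rhox5*, at 13.7 against 7.49 CPM, had a ratio of 1.83 (0.966 to 3.21) and *Rhox13* one of 1.01 (0.264 to 2.73). With every cell thinned to 1 depth the log2 difference of *Rhox5* turned from 0.79 to -0.68. *Rhox6* ranked 1 and *Rhox9* 5 among 9748 genes with at least 50 UMIs, *Esx1* and *Zfp42* left out, the leading 5 being *Rhox6*, the keratin gene *Krt7*, *Tinagl1*, *3830417A13Rik* and *Rhox9*. Past 2-fold higher were 2 of 4 members against 7.76% of 12539 genes, and 0 were lower against 10.8%.

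In d4 EB *Rhox6* and *Rhox9* were again higher in the 20 *Esx1* cells, and *Rhox5* was lower. *Rhox9* stood at 1082 CPM in the cells with *Esx1* and 162 CPM in the 348 without (6.70-fold, 6.14 to 7.30), and *Rhox6* at 986 against 270 CPM (3.66-fold, 3.36 to 3.97). *Rhox5* stood at 31.3 against 135 CPM, 4.31-fold lower, and no *Esx1* cell held 10 or more *Rhox5* UMIs. *Rhox9* ranked 21, *Rhox6* 115 and *Rhox5* 8949 of 9337 genes, behind genes that included *Cxcl10*, *Cryab*, *Cxcl16* and *Irx4*. Here 2 of 4 members were past 2-fold higher against 8.76% of 12378 genes, and 1 was lower against 15.8%. *Rhox13*, at 3 UMIs in 1 *Esx1* cell, joined the lower side with every cell thinned to 1 depth or without the cell with the most UMIs in each group.

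Most *Rhox6* cells of d4 EB nonetheless held no *Esx1* UMI. *Esx1* was found in 15 of the 93 *Rhox6* cells, and conversely 15 of 20 *Esx1* cells (75.0%) held *Rhox6* against 22.4% of the cells without. In d2 EB these shares were 33.3% and 8.8%. The *Esx1* cells were deeper, at a median of 31548 against 24226 UMIs in d2 EB and 35809.5 against 21408 UMIs in d4 EB, and 0 of them were called doublets.

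In R1 the dCD library showed the same split as E14Tg2a for *Rhox6* and *Rhox9*, and the WT library did not. In dCD *Rhox6* stood at 367 CPM in the 111 *Esx1* cells and 84.0 CPM in the 1588 without (4.37-fold, 4.01 to 4.76), *Rhox9* at 200 against 80.2 CPM (2.50-fold, 2.24 to 2.78), *Rhox5* at 168 against 139 CPM (1.21-fold, 1.08 to 1.35) and *Rhox13* at 16.1 against 17.7 CPM. Here 2 of 4 members were past 2-fold higher against 2.87% of 15179 genes, and 0 were lower against 3.85%. Without the cell with the most UMIs of each gene in each group *Rhox9* fell under the 2-fold limit, with a log2 difference of 0.97 in place of 1.31, and that of *Rhox5* was 0.03 in place of 0.28.

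In WT the 84 *Esx1* cells held 5 UMIs of *Rhox6* and 8 of *Rhox9*. *Rhox6* stood at 2.66 CPM against 4.38 CPM in the 1332 cells without (0.608 times, 0.192 to 1.48), *Rhox9* at 4.26 against 5.99 CPM (0.712 times, 0.30 to 1.45) and *Rhox5* at 10.1 against 16 CPM (0.631 times, 0.375 to 1.0). None of the 3 members with at least 10 UMIs was past 2-fold, where 4.22% of 14297 genes were higher and 8.89% lower. Without the cell with the most UMIs in each group *Rhox5* and *Rhox9* were past 2-fold lower, with log2 differences of -1.72 and -1.06, and 1 of the 84 cells held 12 of the 19 *Rhox5* UMIs. *Rhox13* had 5 UMIs in this library in all and was not compared. These cells carried *Esx1* but little *Rhox6* or *Rhox9*: 4 of 84 (4.8%) held *Rhox6*, against 3.2% of the cells without *Esx1*.

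Extraembryonic ectoderm or trophoblast markers stood higher with *Esx1* in every EB library, WT included. The summed level of 21 such markers in cells with and without *Esx1* was 7308 and 2512 CPM in d2 EB, 5352 and 2873 in d4 EB, 3936 and 1284 in dCD and 6529 and 2257 CPM in WT. Of the tested markers 10 of 18 were past 2-fold higher in d2 EB, 8 of 18 in d4 EB, 10 of 20 in dCD and 5 of 20 in WT, with 2, 1, 1 and 3 lower. *Elf5*, a defining gene of that lineage, had 0 UMIs in the *Esx1* cells of all 4 libraries, *Eomes* was at 0 in those of d2 and d4 EB, *Dlx5* in those of d2 EB and *Ascl2* in those of dCD.

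The *Esx1* ranks differed accordingly between the R1 libraries. *Rhox6* ranked 25 and *Rhox9* 158 of 12026 genes in dCD, behind genes that included *Vnn1*, *Wnt6*, *Cryab* and *3830417A13Rik*, while in WT they ranked 9503 and 8840 of 11441, and the leading genes included *Krt7*, *Cxcl16*, *Gm16136* and *Pdgfb*. The WT *Esx1* cells were the deeper of the R1 cells, at a median of 19373.5 UMIs against 12949.5 without, and in dCD these medians were 14799 and 11628.

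**Figure D4:**
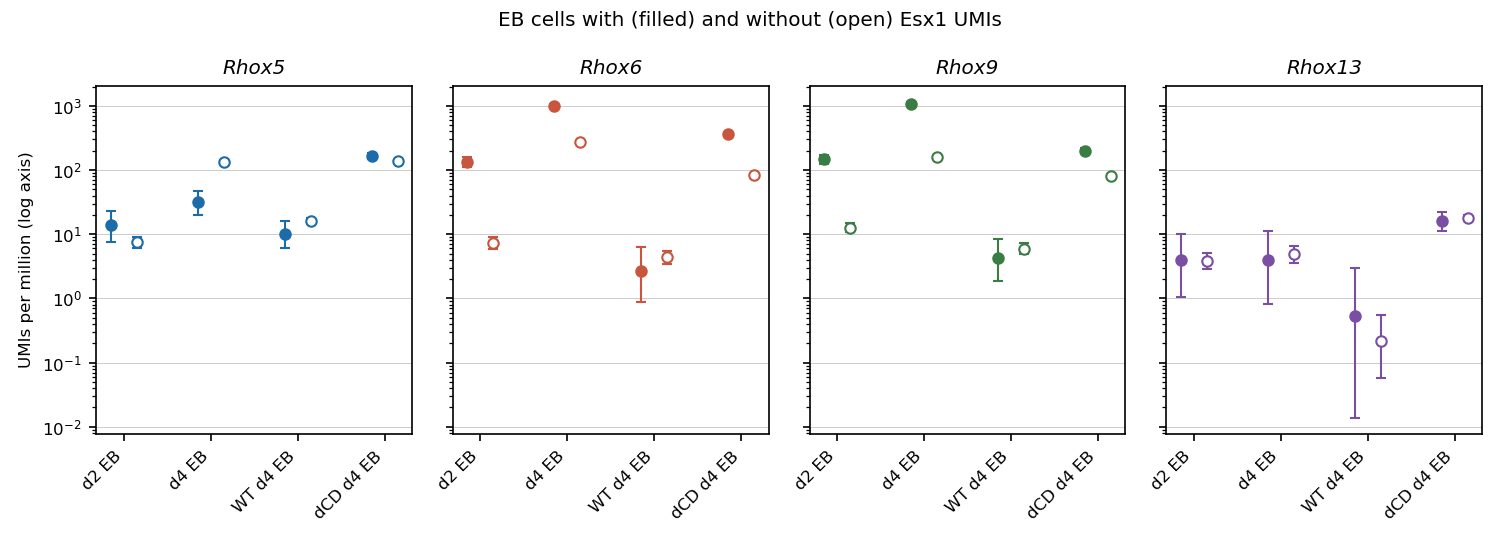
Level of each *Rhox* gene (CPM, log axis) in EB cells with an *Esx1* UMI (filled) and without (open), for d2 and d4 EB of E14Tg2a and the WT and dCD d4 EB of R1; bars are 95% counting intervals. *Rhox6* and *Rhox9* are higher in the filled points of d2 EB, d4 EB and dCD (for example 986 against 270 CPM of *Rhox6* in d4 EB) and overlap in WT, while *Rhox5* is lower with *Esx1* in d4 EB (31.3 against 135 CPM).

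The d4 EB cells with high *Rhox6* or *Rhox9* and those with high *Rhox5* overlapped in part. Of 368 cells 29 (7.88%) held 10 or more UMIs of *Rhox6* or *Rhox9*, 22 of them of both. The 43 cells with 10 or more UMIs of *Rhox5* were 11.7% of the library and included 9 of the 29. The part of depth in this overlap was not tested. *Esx1* was found in 11 of the 29 (37.9%), in 0 of the 43, which allows up to 6.98%, and in 9 of the 305 cells that were high in none (2.95%). None of the 29 was among the listed PGCLC or called a doublet. *Hand1* was found in 24 of the 29 (82.8%) and in 70.5% of the 305, and *Zfp42* in 18 (62.1%) and in 26.9%. The naïve pluripotency markers, *Zfp42* among them, summed to 236 CPM in the 29 and 461 CPM in the 305.

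Extraembryonic ectoderm or trophoblast markers summed to 10061 CPM in the 29 cells, against 1753 CPM in the 305, at a median depth of 41729 against 20801 UMIs. In d2 EB the 11 cells with 10 or more UMIs of *Rhox6* or *Rhox9* stood at 8124 CPM of these markers against 2674 CPM, and 6 of the 11 held *Esx1*. In dCD the 63 such cells were set against the 1564 cells that were high in none. *Esx1* was found in 13 of the 63 (20.6%) against 5.95%, *Zfp42* in 42 (66.7%) against 43.7%, and the germ cell gene *Dppa3* in 21 (33.3%) against 4.99%. *Stra8*, a gene of meiotic entry, was found in 22 (34.9%), near its share of 29.3% in the others. Extraembryonic ectoderm or trophoblast markers summed to 3545 CPM against 1431 CPM, and naïve pluripotency markers to 638 CPM against 791 CPM. The part of depth in these differences was not tested.

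Listed PGCLC held *Rhox5*, *Rhox6* and *Rhox9* at a lower level than other cells in d4 EB, but not in d2 EB. In d2 EB the 91 listed cells stood at 14.3 CPM of *Rhox5*, 8.52 of *Rhox6*, 13.0 of *Rhox9* and 3.41 of *Rhox13*, against 5.59, 6.99, 12.6 and 4.01 CPM in the 420 cells that were neither listed nor held *Esx1*. There *Rhox5* was thus higher in listed cells (10.3 to 19.4 CPM against 4.27 to 7.20 CPM), and the intervals of the other 3 genes overlapped. In d4 EB the 44 listed cells stood at 35.1, 27.5, 26.5 and 1.90 CPM, and the 308 cells that were neither listed nor held *Esx1* stood at 146, 299, 178 and 5.20 CPM. *Rhox6* was found in 18 of the 44 listed d4 cells (40.9%), against 25.3% of all cells of the library, and none of the 18 held over 5 UMIs of it. Free RNA in the droplets can give such counts, and its part and that of depth were not tested.

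Other EB groups, which can share cells, were read by single genes. With *Zfp42*, 187 cells of d2 EB stood at 13.9, 30.1, 42.5 and 4.74 CPM of *Rhox5*, *Rhox6*, *Rhox9* and *Rhox13*, against 3.89, 6.86, 8.35 and 3.32 CPM without. In d4 EB the 110 cells with *Zfp42* stood at 116, 589, 431 and 9.68 CPM, against 132, 176, 122 and 1.97 CPM. *Rhox6* and *Rhox9* were thus higher with *Zfp42* in d4 EB, and *Rhox5* was not. *Rhox13* was not read as higher, since 1 cell held 25 of its 46 UMIs in this library. Of its 14 cells 7 held *Zfp42*. *Zfp42* is 1 gene of the naïve pluripotency list, whose sum stood lower in the d4 EB cells high in *Rhox6* or *Rhox9*, as given above. In d2 EB cells with the endothelial gene *Cldn5*, *Rhox5* was found in 1 of 57.

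dCD d4 EB held each of the 4 members at a higher level than WT d4 EB. *Rhox5* was found with 3243 UMIs in 528 of 1699 dCD cells and 319 UMIs in 134 of 1416 WT cells, at 142 against 15.5 CPM (9.14-fold, 8.15 to 10.3). *Rhox6* had 2519 UMIs in 300 dCD cells and 87 UMIs in 46 WT cells, at 110 against 4.23 CPM (26-fold, 21 to 32.6). *Rhox9* had 2089 UMIs in 312 cells and 120 UMIs in 63 cells, at 91.3 against 5.83 CPM (15.7-fold, 13.0 to 19.0). The germ cell gene *Rhox13* had 402 UMIs in 240 dCD cells and 5 UMIs in 5 WT cells, at 17.6 against 0.243 CPM (72.3-fold, 30.7 to 224).

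Past 2-fold higher were 4 of 4 members against 6.31% of 16272 genes, and 0 were lower against 3.68%. *Rhox6* ranked 5, *Rhox13* 11, *Rhox9* 15 and *Rhox5* 26 of 13146 genes with at least 50 UMIs. More cells held a UMI and the cells that did held more: *Rhox6* was found in 17.7% of dCD and 3.25% of WT cells, with 8.40 and 1.89 UMIs per such cell. After thinning every cell to 6831 UMIs these shares were 14.2% and 2.12%.

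The members were also found together more often in dCD. At least 1 of the 4 was found in 786 dCD cells (46.3%) and 197 WT cells (13.9%), at least 2 in 373 (22.0%) and 42 (2.97%), and 4 of 4 in 43 dCD cells (2.53%) and 0 WT cells. In E14Tg2a d4 EB at least 1 was found in 269 cells (73.1%) and at least 2 in 94 (25.5%).

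The comparison was repeated in cells with and without *Zfp42*, whose share differed between the libraries. It was found in 779 dCD cells (45.9%) and 256 WT cells (18.1%), and within those cells *Zfp42* stood at 414 and 490 CPM. In cells with *Zfp42* *Rhox5* stood at 199 CPM in dCD and 48.6 CPM in WT (4.10-fold, 3.56 to 4.73), *Rhox6* at 134 against 17.9 CPM (7.51-fold, 5.99 to 9.54), *Rhox9* at 108 against 22.2 CPM (4.85-fold, 3.95 to 6.02) and *Rhox13* at 23.7 against 1.13 CPM (20.9-fold, 8.86 to 64.9). Here 4 of 4 members were past 2-fold higher against 6.91% of 14337 genes, and 0 lower against 2.78%.

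In cells without *Zfp42* the ratios were larger. *Rhox5* stood at 79.7 CPM in 920 dCD cells and 6.43 CPM in 1160 WT cells (12.4-fold, 10.1 to 15.3), *Rhox6* at 83.9 against 0.495 CPM (170-fold, 85.7 to 394) and *Rhox9* at 73.7 against 1.36 CPM (54.1-fold, 35.5 to 86.9). *Rhox13* counted 121 UMIs in dCD and 0 in WT, at least 59.2-fold higher. Again 4 of 4 members were past 2-fold higher, against 6.45% of 15033 genes, and 0 lower against 3.29%. WT cells without *Zfp42* were nearly free of *Rhox6*, which was found in 7 of 1160, and of *Rhox13*, found in 0.

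Ranks told the same of both cell groups. With *Zfp42* *Rhox13* ranked 17, *Rhox6* 40, *Rhox9* 76 and *Rhox5* 98 of 11102 genes, and without *Zfp42* *Rhox6* ranked 2, *Rhox9* 5, *Rhox13* 23 and *Rhox5* 27 of 12102. All 4 members were thus among the first 100 genes in each cell group.

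The difference between cells with and without *Zfp42* was larger in WT than in dCD. In WT *Rhox5* was 7.56-fold higher with *Zfp42*, *Rhox6* 36.1-fold (17.5 to 86.5) and *Rhox9* 16.3-fold (10.2 to 27.2), and *Rhox13* counted 5 UMIs with and 0 without. In dCD the ratios were 2.50 (2.31 to 2.71) for *Rhox5*, 1.60 (1.47 to 1.74) for *Rhox6*, 1.46 (1.34 to 1.60) for *Rhox9* and 2.15 (1.73 to 2.69) for *Rhox13*, and for *Rhox5*, *Rhox6* and *Rhox9* the intervals of both libraries did not overlap. Past 2-fold higher were 3 of 3 members with at least 10 UMIs in WT, against 8.08% of 14297 genes (13.9% lower), and 2 of 4 in dCD (*Rhox5* and *Rhox13*), against 5.88% of 15179 genes (8.55% lower).

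**Figure D5:**
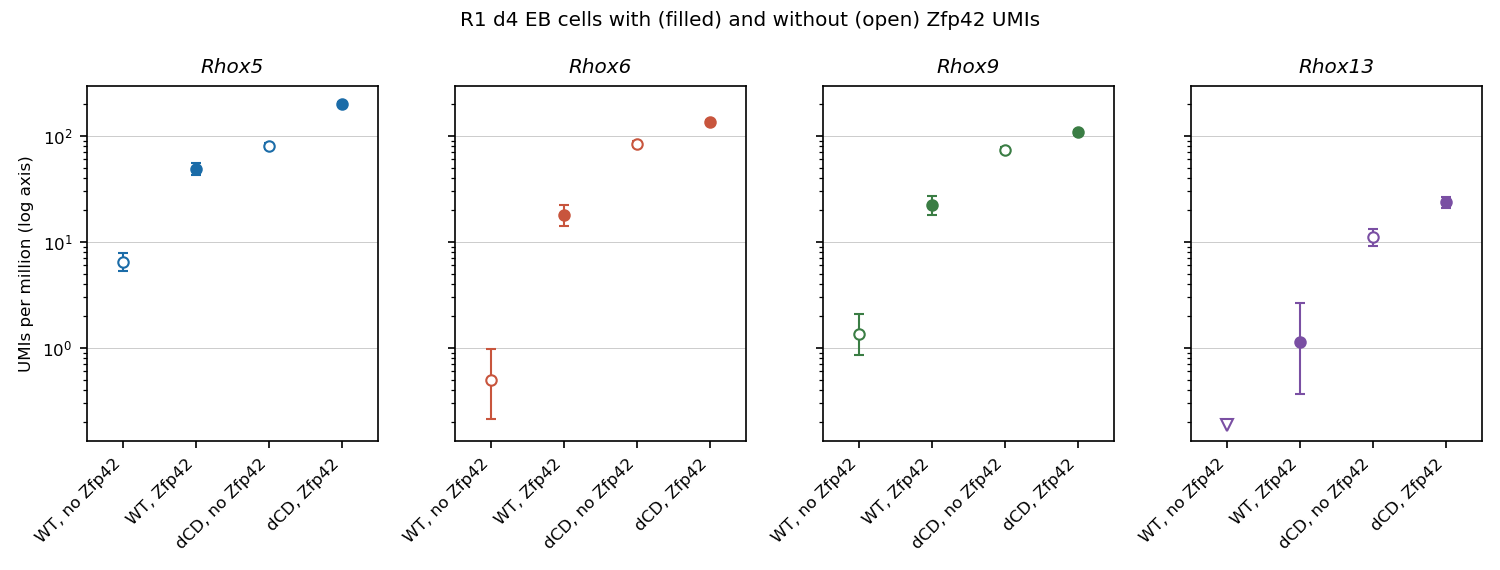
Level of each *Rhox* gene (CPM, log axis) in R1 d4 EB cells without (open) and with (filled) a *Zfp42* UMI, WT and dCD; bars are 95% counting intervals and the open triangle is a group with 0 UMIs, drawn at the level of 3 UMIs. Each dCD point lies above both WT points of its gene, and the step from open to filled is larger in WT (0.495 to 17.9 CPM of *Rhox6*) than in dCD (83.9 to 134 CPM).

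Within WT *Rhox6* and *Rhox9* lay in few cells, most of them with *Zfp42*, and *Rhox5* did not follow this. Of the 46 *Rhox6* cells 39 held *Zfp42* (84.8%), and of the 63 *Rhox9* cells 50 did (79.4%). Of the 134 *Rhox5* cells 49 did (36.6%). In the 84 cells with *Dppa3* *Rhox6* stood at 30.5 CPM and *Rhox9* at 50.4 CPM, against 2.29 and 2.55 CPM without, and in the 49 cells with *Cldn5* *Rhox6* stood at 37.2 CPM. In the 1108 WT cells with *Hand1*, a gene of extraembryonic mesoderm, *Rhox6* stood at 1.49 CPM and *Rhox9* at 1.25 CPM. The 8 WT cells with 10 or more *Rhox5* UMIs all held *Zfp42*, and they held 37.0% of the *Rhox5* UMIs.

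In cells with *Hand1*, *Rhox6* and *Rhox9* stood above their library level in dCD and below it in WT. *Hand1* was found in most WT cells but in 498 of 1699 dCD cells, so the gates need not hold like cells. In the 498 dCD cells with *Hand1* *Rhox5* stood at 87.6 CPM, *Rhox6* at 168 CPM and *Rhox9* at 108 CPM, against 142, 110 and 91.3 CPM in the whole library. In the 115 with *Dppa3* they stood at 402, 313 and 283 CPM, against 118, 91.6 and 73.8 CPM without. *Rhox13* followed *Stra8*, at 35.8 CPM in 513 cells with *Stra8* and 8.95 CPM in 1186 without, whereas *Rhox6* stood at 106 and 112 CPM.

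The other Rhox genes were sparse. Each table held 30 of them, of which 14 had a UMI in E14Tg2a and 18 in R1, and the 4 members held 97.8% of 11973 Rhox UMIs in E14Tg2a and 96.6% of 9097 in R1. In dCD *Rhox1* had 185 UMIs against 3 in WT (55.5-fold, 18.7 to 271), *Rhox7b* 34 against 0, *Rhox10* 30 against 1 and *Rhox2a* 19 against 0. *Rhox2a* shares 91.1% of its windows with other Rhox2 copies and *Rhox7b* 70.8%, so the counts of these genes are uncertain. In E14Tg2a *Rhox1* counted 47 UMIs in S+L ESC, 12 in 2i ESC, 41 and 25 in d1 and d2 EpiLC and 11 in d4 EB, and *Rhox10* 31 UMIs in S+L ESC, the library where *Rhox13* was highest.

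Genes next to the cluster did not share the difference between dCD and WT, with 1 exception. Of the 5 nearest protein-coding genes on either side of the cluster, 10 in all, 8 were tested. Past 2-fold higher in dCD was 1 of the 8, against 6.31% of all genes, and 0 were lower, against 3.68%. The median log2 difference was -0.13, against 0.03 over all genes. Genes without a Rhox symbol inside the cluster were not read. The exception was *Gm9*, at 10.3 CPM in dCD and 0.194 CPM in WT. *Lamp2*, on the other side of the cluster, stood at 66.6 and 122 CPM.

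Other germline genes known to be silenced by methylation were higher in dCD together with the members. Of 16 listed genes 14 were past 2-fold higher and 0 lower, against 6.31% and 3.68% of all genes. Their median log2 difference was 2.05, and their summed level was 189 against 20.0 CPM. The list was chosen with earlier results of these data known, and DNA methylation was not measured in these libraries. At the enhancers it assigned to PGCLC genes, the paper reports DNA methylation as generally raised in dCD ESC. In dCD EpiLC it reports a rise at some of them. The cause of the differences read here was not tested. *Tuba3a* stood at 46.9 and 0.729 CPM, *Sycp3*, a protein of the meiotic chromosome axis, at 38.1 and 3.84 CPM, *Dazl*, an RNA-binding protein of germ cells, at 27.0 and 2.72 CPM and *Slc25a31* at 7.51 and 0.243 CPM. In cells with *Zfp42* 13 of 16 were past 2-fold higher, against 6.91% of all genes, and in cells without 13 of 15, against 6.45%.

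Of 18 genes of DNA methylation and silencing none was past 2-fold in either direction over all cells, where 6.31% of all genes were higher and 3.68% lower. The same shares apply to the marker counts that follow. The 18 genes summed to 1651 CPM in dCD and 1378 CPM in WT. The largest differences were those of *Tet2* (45.8 and 22.5 CPM), *Tet1* (170 and 87.3 CPM), both 5-methylcytosine dioxygenases, *Dnmt3l* (13.5 and 6.51 CPM) and *Dnmt3b* (57.0 and 30.7 CPM). Markers of cell types moved between the libraries too: 5 of 6 extraembryonic mesoderm genes were lower in dCD (225 against 942 CPM summed), 3 of 7 naïve pluripotency genes were higher (799 against 554 CPM), 3 of 20 extraembryonic ectoderm or trophoblast genes were higher and 4 lower (1529 against 2646 CPM), and 0 of 6 PGC genes were past 2-fold (104 against 108 CPM). Genes of the 2-cell stage were higher in 3 of 3 tested, with 19.0 against 0.0486 CPM summed, 2 of 5 endothelial genes were lower (45.7 against 54.5 CPM) and 1 of 4 endodermal genes was higher (84.1 against 35.3 CPM). The part of this makeup in the Rhox differences was not tested beyond the split by *Zfp42*.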

How the data were processed

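Cells were profiled with 10x Genomics 3′ libraries, chemistry v2 for E14Tg2a and v3 for R1. The deposited values are counts of UMIs per gene and cell. For E14Tg2a the authors counted UMIs with Cell Ranger on GRCm38 and aggregated the libraries after subsampling them to equal mapped reads, which lowers the counts of deeper libraries. For R1 the authors used mm10 and removed cells with fewer than 2000 detected genes, and the counter is not given in the sources used here. The 2 tables were therefore never set in 1 ratio. Barcode suffixes of the E14Tg2a table were tied to stages through the list of PGCLC barcodes in the study's supplement, where 135 of 135 listed cells were found, and Ensembl identifiers to symbols through GENCODE M21 (27645 of 27998).

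The UMIs of a gene in a group of cells were divided by all UMIs of those cells (CPM, counts per 1000000). Levels carry exact Poisson intervals, ratios exact conditional intervals, and shares of cells exact binomial (Clopper-Pearson) intervals, at 95%. A count of 0 was read as fewer than 3 UMIs over the group, and lower bounds of ratios use this limit. A gene was past 2-fold when log2(CPM + 1) differed by at least 1, among genes with at least 10 UMIs over both groups. Cells were split by at least 1 UMI of a gene. Doublets were called by Scrublet in scanpy 1.11.5 (0.589% to 6.23% of cells per library) and kept. For shares at equal depth each cell was thinned to 15374 UMIs (E14Tg2a) or 6831 UMIs (R1), with shallower cells left out. No test was made, since each condition had 1 library and cells are not replicates. Scripts used Python 3.11.15, numpy 2.4.6, scipy 1.17.1, pandas 2.3.3 and matplotlib 3.10.9. The calls were also run on simulated group counts, drawn as independent Poisson values. Such counts lack the uneven spread over cells seen here, so they cannot check the intervals against it.

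Beside the members, genes were named by rule: the gate genes, Rhox genes with at least 10 UMIs in 1 library, the 5 genes with the highest r, the 5 that lead each *Esx1* split, the 5 nearest genes on either side of the cluster, and up to 4 per gene list. One gene that leads an *Esx1* split is not reported here. *Gm9* and *Lamp2* were singled out among the nearest genes, and the genes at 0 among the markers, after their values were seen. The members and lists were chosen with earlier results of these data known. Alternatives were the mean of per-cell CPM, median-of-ratios scaling, pseudocounts of 0.1 and 5 CPM, doublets left out, a filter on cells, thinning, a gate of 2 UMIs, listed PGCLC or *Esx1* cells left out, and gene minimums of 1 and 50 UMIs. Leaving out the cell with the most UMIs was added after the data were seen.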

Additional observations from a re-analysis of the deposited data

Results flagged for a closer look

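The *Esx1* split took opposite directions in libraries of the same table for 3 members, with counting intervals that did not overlap. Each direction is that of 1 library, and the difference between libraries was not tested. *Rhox5* stood at 1.829 times its level in cells without *Esx1* in d2 EB and at 0.2322 times in d4 EB. In R1 *Rhox5* stood at 0.6312 times in WT and 1.212 times in dCD, *Rhox6* at 0.6077 and 4.367 times, and *Rhox9* at 0.7119 and 2.495 times. The interval of the WT ratio of *Rhox6* (0.192 to 1.48) and of *Rhox9* (0.30 to 1.45) includes 1, and rests on 5 and 8 UMIs in the 84 *Esx1* cells. That of *Rhox5* in d2 EB (0.966 to 3.21) includes 1 as well, and rests on 14 UMIs in 4 cells. The WT interval of *Rhox5* (0.375 to 1.003) also includes 1. In dCD the log2 difference of *Rhox5* fell from 0.28 to 0.03 without the cell with the most UMIs in each group.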

How the results depend on the processing

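Of 545 alternative values of 61 member differences 428 stayed within the counting interval of the main value, 117 moved outside it, 533 kept their sign and 0 reversed a difference past 2-fold. In each dCD against WT comparison 4 of 4 members stayed past 2-fold higher under every alternative run, with the log2 difference over all cells at 2.84 to 3.39 for *Rhox5*, 3.64 to 4.67 for *Rhox6*, 3.15 to 3.95 for *Rhox9* and 2.11 to 5.69 for *Rhox13*. Of 286 alternative counts of members past 2-fold 18 moved by over 1.5 times. A further 4 moved by less: with 0.1 CPM 4 in place of 3 were higher in d1 EpiLC and 3 in place of 2 in S+L ESC, and 3 in place of 2 were higher with *Esx1* in d2 EB from a gate of 2 UMIs or without listed PGCLC. With a pseudocount of 5 CPM the count was 1 in place of 3 higher from 2i ESC to d1 EpiLC, 0 in place of 1 lower from d1 to d2 EpiLC, 1 in place of 3 lower in EpiSC, 1 in place of 2 higher and 0 in place of 1 lower in S+L ESC, and 1 in place of 2 higher with *Zfp42* in dCD. With 0.1 CPM it was 2 in place of 1 lower from d2 to d3 EpiLC, and without doublets 1 in place of 2 higher in S+L ESC. Thinning gave 0 in place of 1 lower in S+L ESC, 1 in place of 0 lower with *Esx1* in d2 EB and in WT, 2 in place of 1 lower in d4 EB, and 1 in place of 2 higher with *Zfp42* in dCD. An *Esx1* gate of 2 UMIs gave 1 in place of 0 lower in d2 EB and 3 in place of 0 lower in WT. Without the top cell 2 in place of 1 were lower with *Esx1* in d4 EB, 2 in place of 0 lower in WT, and 1 in place of 2 higher in dCD. The causes were not tested, except that a larger pseudocount by construction shrinks differences of genes at a few CPM.

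With a minimum of 50 UMIs, which by construction tests fewer genes, the count of all genes past 2-fold was 529 in place of 820 lower in EpiSC, 693 in place of 1226 higher in S+L ESC, 724 in place of 1348 lower with *Esx1* in d2 EB, 656 in place of 1084 higher and 998 in place of 1950 lower with *Esx1* in d4 EB, 343 in place of 584 lower with *Esx1* in dCD, and 586 in place of 990 higher and 254 in place of 399 lower between dCD and WT cells with *Zfp42*.

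No paired analysis was possible because each condition had 1 library and no result came from a test. Depth limits *Rhox6* and *Rhox9* outside EB and *Rhox13* in WT, where a few UMIs carry the level.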
